A study of Mus musculus with 17 samples.

Results

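The preMegE fraction of adult mouse bone marrow was compared with 4 neighbouring progenitor fractions, and the genes described are those whose 5 preMegE arrays all lay above, or all lay below, the 12 arrays of the other fractions. Of 18193 genes measured, 123 lay above (0.676% of all genes) and 23 lay below (0.126%), which makes 146 (0.803%). The cells of every fraction were lineage-negative (Lin-) and came from mice aged 10 to 14 weeks. The preMegE gate was Lin-Sca1-Kit+Itga2b-FcgRlowSlamf1+Englow (5 arrays). The preGM gate differed from it in being Slamf1- (3 arrays), and the preCFUE gate in being Enghigh (3 arrays). The MkP gate was Lin-Sca1-Kit+Itga2b+Slamf1+ (3 arrays), and the CLP gate was Lin-Sca1lowKitlowIL7r+Flk2+ (3 arrays). The name preMegE stands in the study's design text, and the other short names follow the study's field. The labels give no strain or sex, and leave unstated whether the replicate arrays stem from different animals or sorting runs. The p-values therefore cover only array-to-array spread, which may be technical. A free-text label shared by all 17 arrays names a different, stem cell gate that conflicts with the titles, and it was not used. Values are intensities, changes are differences of log2(intensity + 16) between preMegE and the mean of the other 4 fraction means, given ± SE. Each p-value was adjusted over all genes in a limma fit.

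Pre-megakaryocyte-erythroid cells are bipotent progenitors that stand upstream of both the platelet-forming and the red cell-forming branches. GATA factors and their cofactors drive these branches, and Klf1 drives the red cell-forming one. Gata2 is active early, and Gata1 takes over as cells mature. Progenitors at this point still divide and have yet to build the hemoglobin, granules and platelet proteins of their descendants.

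The label was checked against marker genes. Gata1 and Klf1, the central erythroid transcription factors, averaged 1219 and 2142 in preMegE, against 89.2 and 129.9 in preGM. Both averages were higher still in preCFUE, so these genes do not set preMegE apart from that fraction. Eng, in which the preMegE and preCFUE gates differ, was not part of this check. The granule enzyme gene Mpo averaged 68.1 in preMegE and 7503 in preGM, and the lymphoid gene Dntt averaged 21.01 in preMegE and 7813 in CLP. Slamf1, which is part of the gate, was at 106, 83.1, 114, 112 and 91.8 in the preMegE arrays, against 8.83 to 66.5 (median 16.02) in the other 12. The MkP and preCFUE gates are Slamf1+ as well. Slamf1 is also among the genes chosen for lying above all other arrays, so its separation does not bear on the label. Itga2b averaged 319 in preMegE, whose gate is Itga2b-, against 2058 in MkP, 126 in preGM and 62.5 in preCFUE. The 75th percentile of intensity ran from 53.4 (replicate 2) to 74.4 (replicate 3) over the preMegE arrays, and from 50.6 to 68.3 over the other 12. By this measure preMegE replicate 3 was the brightest of all 17. The correlation of CLP replicate 2 was 0.961 with preGM and 0.949 with the rest of CLP, so counts that it moved by over 1.5 times, or off 0, are also given without it. No pair of arrays held identical values.

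Promoters are shown for the genes with the 4 widest gaps between preMegE and all other arrays, and for Cdt1, a replication gene from the lower side. Each is 300 bases, 250 before and 50 after the gene's start, from RefSeq on GRCm38.p6, printed 5′ to 3′ on the gene's strand, with motif letters in capitals. Capitals mark, on either strand, AGATAA (for factors of the GATA family), CACCC (Klf factors) and CAGCTG (an E-box). They also mark TTGGCGC and TTCCCGC on either strand, both spellings of E2F sites, which stand in the windows of Cdt1 (both) and Scin (TTCCCGC). Rapgef3 lies on the minus strand (chr15:97767617-97767916), Scin on the minus strand (chr12:40134179-40134478), St8sia6 on the minus strand (chr2:13793471-13793770), Pdzph1 on the minus strand (chr17:58991326-58991625) and Cdt1 on the plus strand (chr8:122567765-122568064).
Rapgef3: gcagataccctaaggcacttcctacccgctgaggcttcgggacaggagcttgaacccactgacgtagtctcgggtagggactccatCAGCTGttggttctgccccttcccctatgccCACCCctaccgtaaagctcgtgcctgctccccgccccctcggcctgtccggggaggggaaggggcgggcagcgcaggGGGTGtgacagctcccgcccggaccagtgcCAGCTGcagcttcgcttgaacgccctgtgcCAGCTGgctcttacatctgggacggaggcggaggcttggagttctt
Scin: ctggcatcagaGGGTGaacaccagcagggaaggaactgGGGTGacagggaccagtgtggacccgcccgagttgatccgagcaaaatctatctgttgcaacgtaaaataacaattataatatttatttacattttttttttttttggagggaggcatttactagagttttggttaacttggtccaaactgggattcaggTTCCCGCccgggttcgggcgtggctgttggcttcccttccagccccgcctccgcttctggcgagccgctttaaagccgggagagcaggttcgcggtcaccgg
St8sia6: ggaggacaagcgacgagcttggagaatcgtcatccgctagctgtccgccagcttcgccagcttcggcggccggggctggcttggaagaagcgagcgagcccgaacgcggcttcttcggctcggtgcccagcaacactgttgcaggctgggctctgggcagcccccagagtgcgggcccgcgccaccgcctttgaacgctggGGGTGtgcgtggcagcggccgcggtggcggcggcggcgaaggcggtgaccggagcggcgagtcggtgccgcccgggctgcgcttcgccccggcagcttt
Pdzph1: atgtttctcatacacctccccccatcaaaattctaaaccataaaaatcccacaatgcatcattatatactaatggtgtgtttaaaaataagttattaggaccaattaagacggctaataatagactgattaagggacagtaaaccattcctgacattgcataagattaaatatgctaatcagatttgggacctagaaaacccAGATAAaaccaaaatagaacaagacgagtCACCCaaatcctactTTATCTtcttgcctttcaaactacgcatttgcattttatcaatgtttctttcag
Cdt1: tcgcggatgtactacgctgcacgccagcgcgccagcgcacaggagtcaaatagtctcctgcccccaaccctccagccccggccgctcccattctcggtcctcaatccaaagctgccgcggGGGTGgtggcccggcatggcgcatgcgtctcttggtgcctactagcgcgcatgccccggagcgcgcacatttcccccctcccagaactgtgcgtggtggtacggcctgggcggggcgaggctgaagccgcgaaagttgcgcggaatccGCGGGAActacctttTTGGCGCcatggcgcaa

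Pdzph1 carried AGATAA on both strands, whereas the windows of Rapgef3, Scin and St8sia6 did not hold those letters. Promoter windows were matched for 92 of the 123 genes above, for 20 of the 23 below and for 14452 of all genes. AGATAA, searched on both strands, stood in 13.0% of the windows of genes above, in 10.0% of those below and in 9.54% of all windows. CACCC stood in 68.5%, 60.0% and 66.2% of the same sets, and CAGCTG in 17.4%, 15.0% and 18.8%. CCGGAA (ETS factors) stood in 21.7%, 20% and 24.1%, and TGACTCA (NF-E2 and AP-1) in 7.61%, 5.0% and 5.33%. TTGCGCAA (C/EBP factors) stood in 0.27% of all windows and in 0 of the windows of either set. Either E2F spelling, added after the values were seen, stood in 9.78% of windows of genes above, 25.0% (5 of 20) of those below and 11.7% of all. These are matches of letters in a window and nothing was tested on them.

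Across all genes, 1785 passed the test (9.81%), of which 990 were higher in preMegE (5.44%) and 795 lower (4.37%). Counts past the test in the gene lists below are to be read beside these shares. List members above or below all other arrays are to be read beside 0.676% and 0.126%. All 123 genes above were among the higher ones and 21 of the 23 below among the lower ones. The exceptions were Cabcoco1 and 9130214F15Rik, both dim, with preMegE means of 8.09 and 9.45. Of the genes that were higher than the mean of the 4 fractions, 12.4% lay above every other array, and of those that were lower, 2.64% lay below. The genes were chosen on the same arrays as the test, so their p-values and their separation are not independent of each other. When the spread between the 4 other fractions was counted as error, 86 of the 123 and 12 of the 23 passed, and 161 genes did in all.

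Rapgef3, Scin and St8sia6 stood furthest from the rest. Rapgef3, the gene of the cAMP-activated exchange factor for Rap proteins known as Epac1, was at 255, 234, 360.2, 258 and 323 in the preMegE arrays, against 17.1 to 63.8 (median 38.95) in the other 12. Its lowest preMegE array exceeded the highest other array, in preGM replicate 1, by 1.64 on the log2 scale. The change was 2.53 ± 0.16 (adjusted p = 1.28e-07), and no other fraction mean exceeded 50.2. These values are from its brightest probe set, and its other probe sets differed. A probe set averaging 70.9 over all arrays also separated them (change 1.84, gap 1.00). Those averaging 72.6 and 21.5 rose by 0.89 and 0.55 but overlapped the other arrays. A dim probe set, averaging 9.10, did not pass in the limma fit over probe sets (-0.063, adjusted p = 0.525). Scin, which encodes scinderin (adseverin), a calcium-dependent actin-severing protein, was at 636, 399, 845, 539 and 619 in preMegE, against 13.6 to 121 (median 34.4) in the other arrays. The preCFUE arrays were the nearest, and the preMegE mean was 6.41 times theirs (change 3.47 ± 0.14, adjusted p = 1.34e-09). St8sia6, the gene of an α-2,8-sialyltransferase that adds sialic acid to sialylated glycans, was at 1316, 834, 2124, 1224 and 1009 in preMegE, against 7.60 to 269.6 (median 41.8) elsewhere. It too was next highest in preCFUE, at 244, while CLP averaged 13.7 (change 4.12 ± 0.20, adjusted p = 8.95e-09). In bulk arrays such as these, fewer cells of a type and less RNA per cell cannot be told apart.

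**Figure D1:**
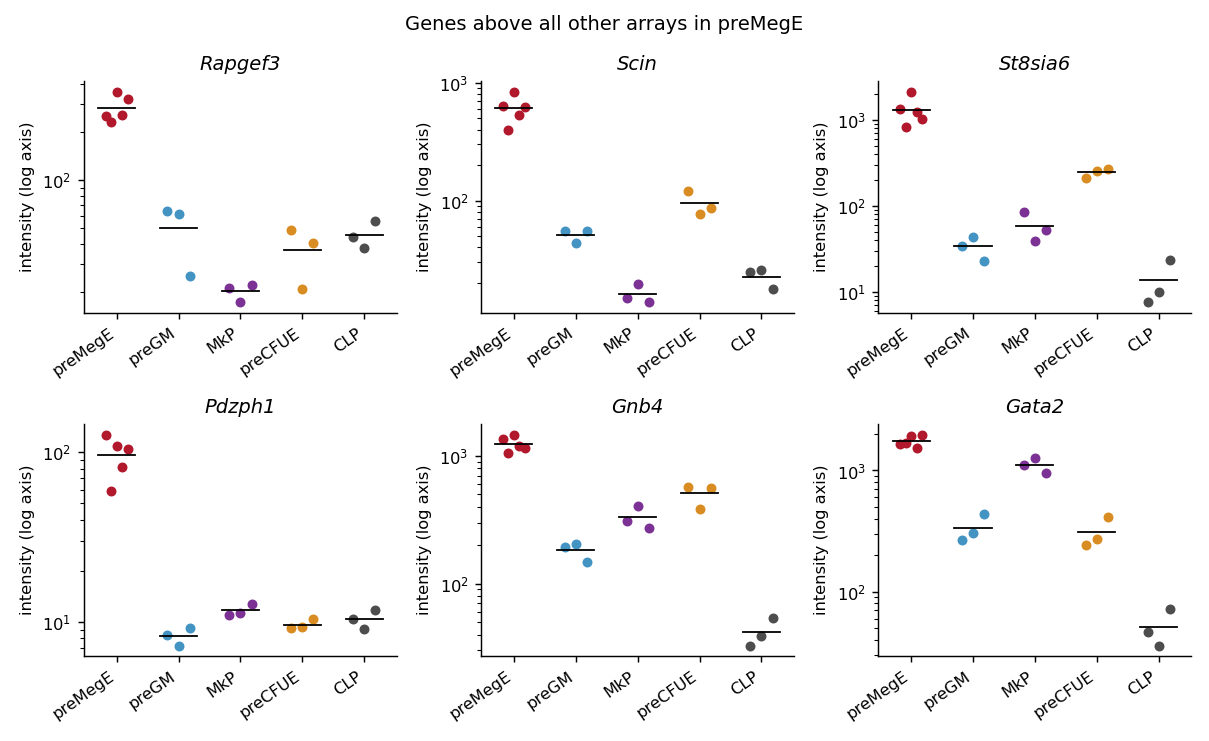
Intensity (log axis, arbitrary units) of 6 genes in each array, by fraction, with preMegE at the left. Points are arrays (5 for preMegE, 3 for each other fraction) and black lines are group means. Every preMegE point lies above every other point. The nearest fraction is preGM for Rapgef3, preCFUE for Scin, St8sia6 and Gnb4, and MkP for Pdzph1 and Gata2.

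Pdzph1, which encodes a protein with PDZ and PH domains, was at 126, 58.8, 108, 81.7 and 104 in preMegE, and the other 12 arrays all lay between 7.27 and 12.8. The preMegE mean was 8.20 times the next highest fraction mean, the largest such ratio of the 123 genes. Clec4d, a C-type lectin receptor gene, was at 896, 945, 1047, 1360.1 and 1571 in preMegE, against 303 in preCFUE and 17.3 in CLP on average. Pfn2, a profilin gene whose product binds actin monomers, was at 57.1, 35.4, 57.6, 47.1 and 53.9 in preMegE and at or below 10.4 elsewhere. Dnah12, an axonemal dynein heavy chain gene, was at 184, 99.1, 209, 146 and 122 in preMegE, against 37.8 on average in preCFUE, the next fraction. Gnb4, a G-protein β-subunit gene, averaged 1239.6 ± 165 (SD, n = 5) in preMegE, against 508 ± 106 in preCFUE and 41.8 ± 10.7 in CLP (n = 3 each).

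**Figure D2:**
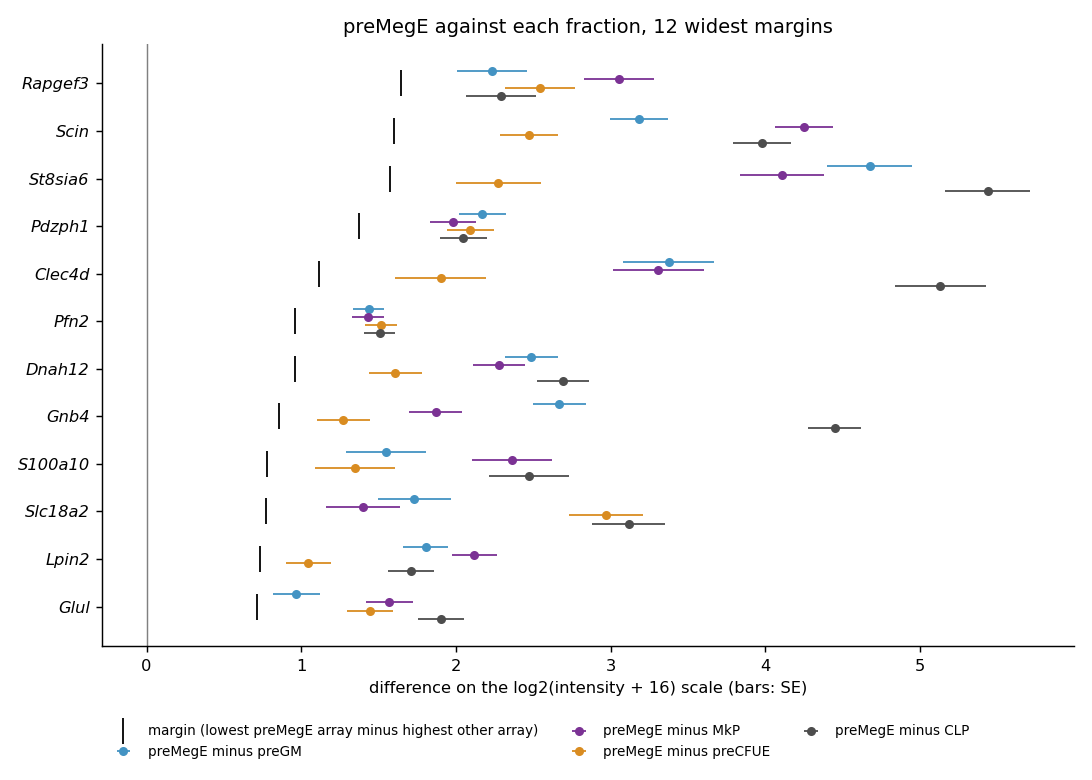
Difference between preMegE and each other fraction on the log2(intensity + 16) scale for the 12 genes with the widest gap, as points with SE bars. The black tick marks the gap between the lowest preMegE array and the highest other array. The 4 comparisons share the 5 preMegE arrays. For Pdzph1 and Pfn2 the 4 differences lie close together, whereas for Gnb4 they run from 1.27 against preCFUE to 4.45 against CLP.

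S100a10, the annexin A2 partner, was at 2445, 2890.5, 2252, 2966 and 3293 in preMegE, against 322 to 1306 (median 715) in the others. Slc18a2, the vesicular monoamine transporter gene, averaged 185 in preMegE, against 57.9 in MkP, 45.7 in preGM and 9.02 in preCFUE. Its level in preCFUE was thus close to the 6.47 of CLP. Lpin2, a phosphatidate phosphatase gene, changed by 1.67 ± 0.11, and Glul, the glutamine synthetase gene, by 1.47 ± 0.11, and they averaged 1011 and 1198 in preMegE, against 484 in preCFUE and 599.8 in preGM, the next fraction of each.

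Over the 123 genes above, the change ran from 0.23 to 4.19 with a median of 1.26, and 78 changed by at least 2-fold. The preMegE mean ran from 11.4 (Il6, a dim gene) to 3603 (Txnip), with a median of 362 against 28.9 over all genes. Gaps to the nearest other array were mostly narrow, at least 1 on the log2 scale in 5 genes, at least 0.5 in 19 and under 0.1 in 36. The ratio of the preMegE mean to the next highest fraction mean ran from 1.13 to 8.20, with a median of 1.68, and passed 2 in 32 genes. That next fraction was preCFUE for 67 genes, preGM for 30, MkP for 22 and CLP for 4. Just inside the threshold stood Prkch (lowest preMegE array 399, highest other array 398) and Usp48 (633 and 626). Just outside stood Fam189b (421.83 and 422.01) and Mageb16 (9.79 and 9.80).

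The coefficient of variation over the 5 arrays had a median of 17.6% for the 123 genes above and 13.2% for the 23 below, against 17.2% for all genes. It was lowest for Galnt7 (2.46%) and highest for Dnah8 (53.0%) among genes above. Replicate 2 was the lowest preMegE array for 72 of the 123, and without it 231 genes lay above. Gapdh probe sets at the 3-prime end read above those at the 5-prime end, a sign of shortened RNA or shortened amplified product. RNA was amplified in more than 1 round, and the ratio does not tell these apart. The log2 difference was 4.06 and 4.21 in preMegE replicates 2 and 5, against 2.87, 3.31 and 3.42 in replicates 1, 4 and 3. In the other 12 arrays this ratio ran from 2.72 to 5.12. With that ratio as a covariate, all 123 genes above and 21 of the 23 below passed. Without replicate 2, 3 or 5, the genes below numbered 36, 41 and 40, against 23 with all arrays, and they numbered 75 when the CLP arrays were left out. Other probe sets were present for 73 of the 123 genes above, 141 in all. Of these, 129 ran in the same direction, 71 passed the test in it, 0 passed in the opposite direction and 29 also separated the 5 arrays from the other 12. For 19 genes below, 29 of 33 other probe sets ran the same way, 11 passed, 0 passed in the opposite direction and 0 separated the arrays.

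**Figure D3:**
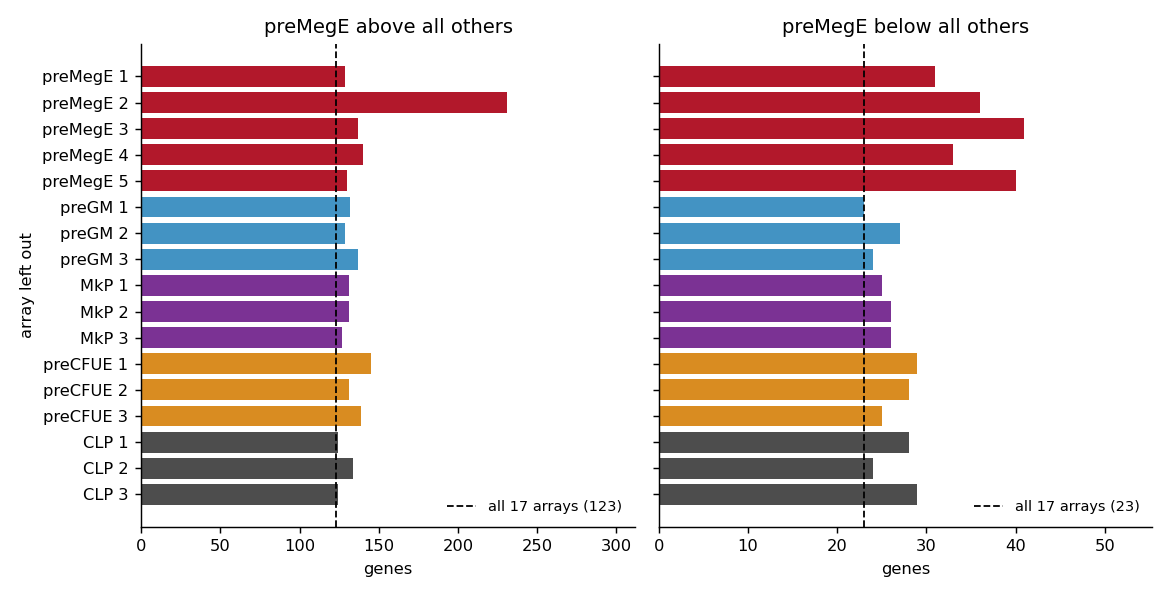
Number of genes whose preMegE arrays lie above (left) or below (right) all others, in genes, when 1 array is left out, one bar per array left out and coloured by fraction. Dashed lines mark 123 and 23, the numbers with all 17 arrays. The longest bar on the left, 231, is for preMegE replicate 2, and on the right 41 for replicate 3, 40 for replicate 5 and 36 for replicate 2.

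Of the 31 myeloerythroid regulators, Gata2, Nfe2 and Bach1 lay above all other arrays, against 0.676% of all genes, while Klf1 and Gata1 did not. Genes of transcription regulators outside that list, such as Foxn3, Skil and Rfx5, also lay above and were not tallied. Gata2, the early GATA factor, was at 1667, 1673, 1923, 1524 and 1970.5 in preMegE, against 1105 on average in MkP, 335 in preGM, 309 in preCFUE and 51.6 in CLP (change 2.55 ± 0.15, adjusted p = 3.27e-08). Its smallest difference was against MkP, at 0.66 ± 0.20, and its largest against CLP. With the spread between fractions counted as error, Gata2, Nfe2 and Mfsd2b no longer passed in limma's test (adjusted p 0.0965, 0.210 and 0.174), whereas Bach1 did (7.50e-04). Nfe2, the large subunit of the factor NF-E2 that acts in platelet and globin gene expression, averaged 785 in preMegE, against 475 in MkP. Bach1, a heme-regulated repressor that shares the partners of NF-E2, averaged 1053 in preMegE, against 587 in preGM, the next fraction. Nfe2 and Bach1 were singled out after their values were seen. Among the myeloerythroid regulators (31 measured), 12 rose and 4 fell, leaving 15 that did not pass, with a median change of 0.45 against -0.013 over all genes. Klf1 and Gata1 rose by 2.82 and 2.15 against the mean of the others, but averaged 2142 and 1219 in preMegE, against 2917 and 1399.8 in preCFUE. The differences between preMegE and preCFUE did not pass (Klf1 -0.48 ± 0.21, adjusted p = 0.227, and Gata1 -0.21 ± 0.15, adjusted p = 0.575). When the spread between fractions counted as error, 1 of the 12 still passed. The 4 that fell, Lyl1, Gfi1, Cebpa and Id2, numbered 2 without preMegE replicate 2, 3 or 5. Lyl1 lost its call without any one of 11 of the 17 arrays (adjusted p up to 0.127) and without CLP (0.456).

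Among erythroid genes (24 measured), 13 rose and 0 fell, leaving 11 that did not pass, with a median change of 1.17. Against preGM, MkP and preCFUE alone, 12 rose and 1 fell, and the median was 0.52. Car1, a carbonic anhydrase gene, averaged 4757 in preMegE, against 8109.5 in preCFUE and 267 in preGM (change 3.82 ± 0.21, adjusted p = 2.68e-08). Ces2g and Aqp1, a carboxylesterase and a water channel gene, changed by 3.18 ± 0.13 and 3.17 ± 0.18, and averaged 1114 and 1015 in preMegE, against 1403 and 1069 in preCFUE. None of these 3 genes passed between preMegE and preCFUE (Car1 -0.78 ± 0.29, adjusted p = 0.134, Ces2g -0.34 ± 0.18, adjusted p = 0.353, and Aqp1 -0.073 ± 0.24, adjusted p = 0.976). Ank1, the red cell ankyrin gene, did not pass (0.46 ± 0.15, adjusted p = 0.0642). Mfsd2b, the sphingosine-1-phosphate exporter gene, was the 1 above all other arrays, at 994, 842, 1275, 863 and 939 in preMegE, against 514 in preCFUE and 412 in MkP on average (change 3.05 ± 0.10, adjusted p = 2.29e-10). None of the 24 passed in limma's test when the spread between fractions counted as error, and 9 did at an unadjusted p under 0.05. Of 19 heme and iron genes, 5 rose and 2 fell (median 0.25), led by the iron exporter gene Slc40a1 (2.21 ± 0.12). Urod, a heme synthesis enzyme gene, rose by 1.01. Without preMegE replicate 1, 2, 3 or 4 0 falls passed in limma's test (2 or 3 at an unadjusted p under 0.05), and 1 did without preMegE replicate 5, any MkP array, preGM replicate 1 or 2, or preCFUE replicate 1 or 2. Tfrc, the transferrin receptor gene, fell by 0.67, a call lost without any one of 12 of the 17 arrays (adjusted p up to 0.106) and without CLP (0.0992). Against preGM, MkP and preCFUE alone, 3 of the list rose and 2 fell.

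Of 28 megakaryocyte and platelet genes, 0 lay above or below all other arrays, against 0.803% of all genes. At that share a count of 0 says little about the list. In this list 5 rose, 6 fell and 17 did not pass, with a median of -0.086. Against preGM, MkP and preCFUE alone, 2 rose and 8 fell, with a median of -0.20. F2r, a thrombin receptor gene, averaged 4100.2 in preMegE and 4649.7 in MkP, against 533 in preGM (change 2.10 ± 0.14). Slc35d3 and the integrin gene Itgb3 were highest in MkP and changed by -2.16 ± 0.16 and -1.45 ± 0.11.

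Trib2, a pseudokinase gene that promotes degradation of C/EBPα, was at 1891, 1142, 1772, 1658 and 1444 in preMegE, against 738 in preCFUE, 58.6 in preGM and 19.04 in MkP on average. Its change, 4.19 ± 0.15, was the largest of the 123 genes. Of 25 negative regulators of cytokine and MAP kinase signalling, 4 rose, 9 fell and 12 did not pass, with a median of -0.036. Against preGM, MkP and preCFUE alone, 4 rose and 4 fell, and with the spread between fractions counted as error 1 rose and 0 fell, with 3 falls at an unadjusted p under 0.05. Socs3 and Rgs2 fell by 0.96 and 1.34, and Rgs18 rose by 1.13. Of 36 cAMP and Rap signalling genes, 9 rose and 4 fell (median -0.0048), against 6 and 2 without CLP. The shares over all genes were 5.44% higher and 4.37% lower. In this list 3 lay above all other arrays, against 0.676% of all genes. These were Rapgef3, Pde4d, a cAMP phosphodiesterase gene, and Sipa1l1, a Rap GTPase-activating protein gene. The last 2 rose by 0.76 and 0.98. Rapgef3 was 1 of the 3 given markers, so its place among them was known beforehand. Prkar2b, a regulatory subunit gene of protein kinase A, rose by 1.44 (1162 in preMegE, 1103 in MkP, 99.03 in CLP). Rap1b did not pass (-0.42 ± 0.27) and averaged 1374 in preMegE, against 7265 in MkP.

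Ifngr1, the ligand-binding chain of the interferon γ receptor, was at 801, 699.7, 1116, 771 and 873 in preMegE, against 85.8 to 677 (median 172) in the other arrays, with preCFUE nearest. Of 18 interferon response genes, 6 rose, 0 fell and 12 did not pass, with a median of 0.36. Iigp1 and Irgm1, both interferon-inducible GTPase genes, lay above all other arrays, as 0.676% of all genes did. They averaged 282 and 626 in preMegE, against 37.01 and 135 in MkP. Gbp2 rose by 1.11 without separating the arrays. When the spread between fractions counted as error, 2 of the 6 passed, Iigp1 among them (adjusted p 0.0272), and Irgm1 did not (0.0839). Of 23 cytokine receptor genes, 5 rose and 9 fell (median -0.14), and 3 rose without preMegE replicate 1, 3, 4 or 5. Jak2 and Tgfbr3, which encodes betaglycan, a co-receptor for TGF-β ligands, were singled out after their values were seen. With the spread between fractions counted as error neither passed (adjusted p 0.0930 for Jak2 and 0.193 for Tgfbr3). Jak2, the kinase that transmits erythropoietin and thrombopoietin signals, averaged 820.2 in preMegE, against 614 in MkP and 219 in CLP. Tgfbr3 was at 919.8, 629, 1621, 768 and 748 in preMegE, against 19.7 to 548 (median 203) in the others, and replicate 3 was the highest of its group.

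For the list counts of this paragraph, the shares over all genes were 5.44% higher and 4.37% lower. Of 29 sialic acid pathway genes, 2 rose, 4 fell and 23 did not pass (median -0.027), and 2 rose and 2 fell without CLP. St8sia6, a given marker that lay above all other arrays, was among those that rose. Beside St8sia6, Cmas, which activates sialic acid, rose by 1.01, and St6gal1 fell by 1.00, but it averaged 17.3 in preMegE against 28.8 in preGM and 706 in CLP, and its sign turned without CLP. Muc13, a transmembrane mucin gene, was at 2607, 2104, 2866, 2303 and 2314 in preMegE, against 84.4 to 1659.6 (median 928) elsewhere. Galnt6, Galnt1 and Galnt7, of an enzyme family that acts in mucin-type O-glycan synthesis, averaged 402, 1832 and 161 in preMegE, against 164, 1201 and 108 in the next fraction of each. These and Muc13 were singled out after their values were seen, and Galnt7 no longer passed without any one of the 5 preMegE arrays (adjusted p 0.0540 to 0.0733). With the spread between fractions counted as error, Muc13 and Galnt7 did not pass either (adjusted p 0.249 and 0.0872). Of 19 actin severing and capping genes, 2 rose, 1 fell and 16 did not pass (median 0.016), and the fall was lost without preMegE replicate 1, 2 or 4, MkP replicate 1, or preCFUE replicate 2 or 3. Those that rose were Scin and Dstn, an actin-depolymerizing factor gene (4 rose without CLP replicate 2). Dstn lost its call without CLP (adjusted p 0.0590) and averaged 568 in preMegE and 559.9 in preCFUE. Of 22 retinoid and aldehyde genes, 3 rose and 2 fell (median -0.043), and 2 rose and 1 fell without CLP or without preMegE replicate 3. Aldh1a1, a retinaldehyde dehydrogenase gene, rose by 2.54, with preMegE at 807 and preCFUE at 936.

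Txnip, Arrdc4, Cdkn1b and Apoe were singled out after their values were seen. Txnip, a thioredoxin-binding arrestin that limits glucose uptake, was at 3328, 2667, 5770.3, 3308 and 2940.3 in preMegE, against 861 to 1673 (median 1069.8) in the others (change 1.63 ± 0.15), and had the highest preMegE mean of the 123. Arrdc4, its close paralog, averaged 127 in preMegE, against 75.6 in preCFUE. Cdkn1b, the gene of the cyclin-dependent kinase inhibitor p27, was at 166, 178, 194, 194 and 184 in preMegE, against 43.96 to 131 (median 89.9) in the others. Apoe, an apolipoprotein gene, averaged 1299 ± 435 (SD, n = 5) in preMegE, against 487 in preCFUE, 301 in MkP and 20.3 in CLP.

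The 23 genes below included Rrm2, Cdt1, Uhrf1 and Fen1, which act in DNA replication, Bub1b and Pkmyt1, which act around mitosis, and Acaca and Elovl6, which act in fatty acid synthesis. Of the 23, 14 still lay below all other arrays after quantile normalization and 15 after median centring, against 95 and 116 of the 123 above. Rrm2, the small subunit of the enzyme that makes deoxynucleotides, was at 363, 368, 429, 474 and 528 in preMegE, against 888 to 1582 (median 1147) in the other arrays (change -1.44 ± 0.11, adjusted p = 4.92e-07). Its gap, 0.73 on the log2 scale, was the widest on the lower side. Most gaps there were narrow, at least 0.5 in 2 of the 23 genes and under 0.1 in 15. Cdt1, which loads the replicative helicase, was at 1574, 1200.3, 2008, 1727 and 1240.0 in preMegE, against 2094 to 3846 (median 2556), with a gap of 0.060. Uhrf1, which maintains DNA methylation after replication, averaged 249 in preMegE and fell by 0.98. Fen1, a flap endonuclease gene, and Mybl2, a cell-cycle transcription factor gene, both singled out after their values were seen, fell by 0.63 and 0.73. In the limma fit over probe sets, another probe set of each did not pass (-0.34, adjusted p = 0.5855, and -0.25, adjusted p = 0.332). Other probe sets of Rrm2 and Bub1b passed there, and those of Uhrf1 and Pkmyt1 did not. Bub1b, a spindle checkpoint gene, and Pkmyt1, a kinase gene that restrains entry into mitosis, fell by 0.86 and 0.60. Acaca, the committed enzyme of fatty acid synthesis, was at 127, 118, 131, 139 and 118 in preMegE, against 161 to 304 (median 222) elsewhere. Elovl6, a fatty acid elongase gene, fell by 1.13, and the largest of the 23 changes were those of Chchd10, a mitochondrial protein gene (-1.74 ± 0.12), Arsb, a lysosomal sulfatase gene (-1.73 ± 0.16), and Rnf157 (-1.66 ± 0.18). With the spread between fractions counted as error, Chchd10, Dhrs3, Elovl6, Fen1 and Rnf157 no longer passed (adjusted p 0.0891, 0.0907, 0.0930, 0.0656 and 0.136). Over the 23, the change ran from -1.74 to -0.10 with a median of -0.78, and 6 fell by at least 2-fold. Dhrs3, a retinaldehyde reductase gene, was at 18.05, 21.98, 22.5, 23.6 and 22.8 in preMegE and at 25.4 on average in preCFUE, against 127 in preGM. Just inside the lower threshold stood Cabcoco1 (highest preMegE array 8.42, lowest other array 8.45) and 9130214F15Rik (10.18 and 10.21), and just outside stood Ugt2b5 (highest preMegE array 5.78, lowest other array 5.67) and Penk (9.05 and 8.89).

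**Figure D4:**
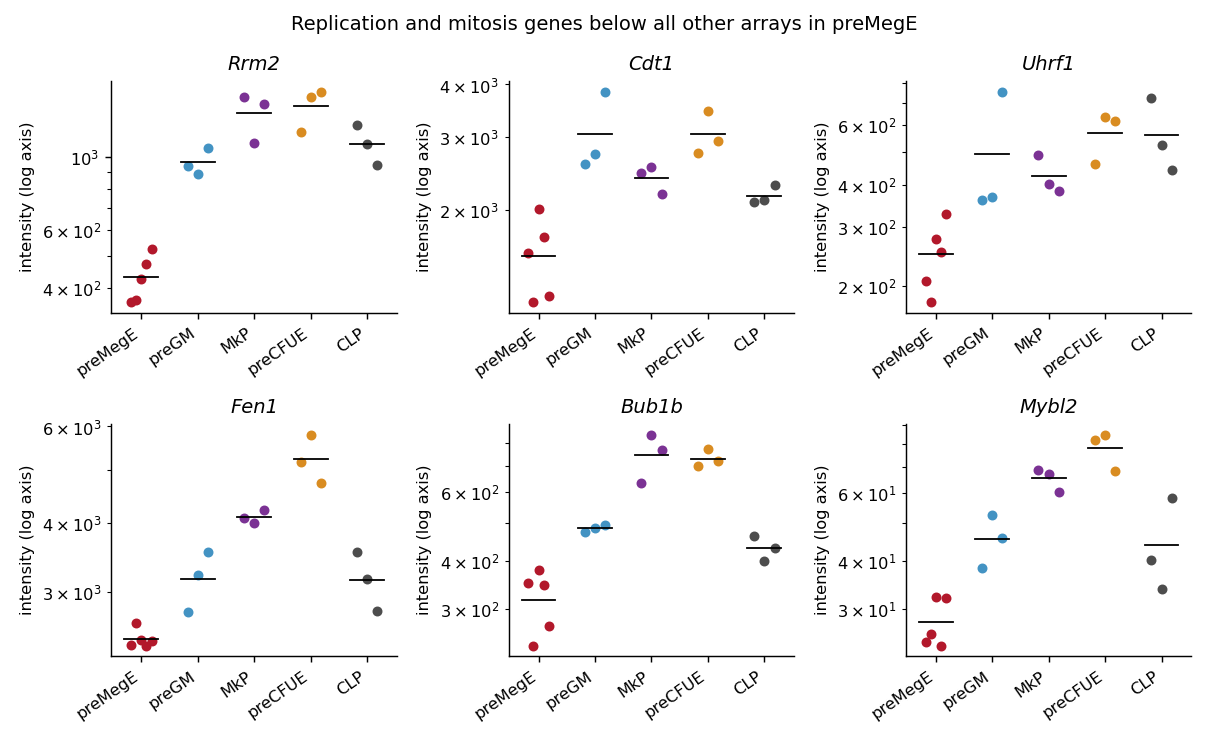
Intensity (log axis, arbitrary units) of 6 replication and mitosis genes in each array, by fraction, with preMegE at the left. Points are arrays (5 for preMegE, 3 for each other fraction) and black lines are group means. The preMegE points lie below every other point. For Cdt1 and Mybl2 the highest preMegE array is close to the lowest of another fraction, and for Rrm2 the gap is wide.

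Of 22 S phase genes, 10 fell, 0 rose and 12 did not pass (median -0.40), and of 21 G2 and M phase genes, 9 fell, 0 rose and 12 did not pass (median -0.48). The most abundant genes that did not pass were Pcna at 0.19 ± 0.34 and Mki67 at -0.37 ± 0.18. The summed level of the 21 G2 and M phase genes ran from 3969 to 6579.6 in preMegE, against 9451 to 13242 in MkP, 10088 to 12197 in preCFUE, 6090 to 7000.3 in preGM and 4183 to 5198 in CLP. The preMegE range thus overlapped those of CLP and preGM. The summed S phase level was 13973 to 21067 in preMegE, against 28320 to 29378 in preCFUE, 26328 to 26684 in preGM, 20787 to 22591 in MkP and 14732 to 24751 in CLP. Without preMegE replicate 2 or 5, S phase falls numbered 5 and 6. G2 and M phase falls numbered 3, 4 and 4 without preMegE replicates 1, 2 and 5, and 5 without preGM replicate 2, and 15 against preGM, MkP and preCFUE alone. With the spread between fractions counted as error, 3 and 1 passed. Of 23 ribosome biogenesis genes 0 passed in limma's test and 4 did at an unadjusted p under 0.05 (median 0.16, and 3 rose without CLP replicate 2 and 1 fell without preMegE replicate 3), among them Npm1 at 0.41 ± 0.18.

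Of 22 granulocyte and monocyte genes, 13 fell and 2 rose (median -0.61). Emb, an adhesion-related transmembrane protein gene, averaged 11.3 in preMegE, against 1135 in preGM and 448 in CLP, and the myeloid transcription factor gene Irf8 averaged 25.6 in preMegE, against 1509 and 1162 in the same fractions. Of 25 lymphoid genes, 17 fell and 1 rose (median -0.60), but 5 fell and 2 rose against preGM, MkP and preCFUE alone. Notch1, a receptor gene of T cell commitment, averaged 59.7 in preMegE, against 1101 in preGM and 2856 in CLP. Of 27 stem or multipotent genes, 7 rose and 9 fell (median -0.21), with Gata2 the only one above all other arrays. Cd34 fell by 2.01, and Ctla2a and Tek, the angiopoietin receptor gene, rose by 1.67 and 1.32. Without preMegE replicate 1, 4 rose and 5 fell. With the spread between fractions counted as error, 0 genes of these 3 lists passed in limma's test, and at an unadjusted p under 0.05 there were 4 granulocyte and monocyte, 2 lymphoid and 4 stem or multipotent genes. Of 20 immediate-early genes 3 rose and 4 fell (median -0.092), and 1, 2 and 2 fell without preMegE replicates 1, 2 and 4. Against preGM, MkP and preCFUE alone, 2 rose and 0 fell in limma's test, with 3 falls at an unadjusted p under 0.05. Egr1 was among those that rose, at 279 in preMegE and 372 in CLP.

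Of 12 neutrophil genes, 0 passed in limma's test and 1 did at an unadjusted p under 0.05, and their summed level ran from 180 to 1835 in preMegE, as widely as the 315 to 1873 in preGM and 200 to 1680 in MkP. Of 13 macrophage genes 0 passed, at an unadjusted p under 0.05 too, and of 13 T and NK genes 1 fell (without CLP 0 passed, and 1 fell at an unadjusted p under 0.05). Of 10 mature B and plasma genes 3 fell (1 without preMegE replicate 4, 2 without CLP), and of 12 dendritic genes 5 fell (3 without preMegE replicate 4, 1 without CLP). Of 6 eosinophil genes, Siglecf rose (2.02 ± 0.22), and the summed level was 124 to 288 in preMegE, against 56.8 to 122 in the other arrays, with the other 5 genes averaging under 16 in preMegE. Of 11 mast and basophil genes, Cpa3, a mast cell carboxypeptidase gene, rose (170.1 in preMegE, 153 in preGM), as did Kit, and Mcpt8 fell. Mcpt8 lost its call without preMegE replicate 1, 3, 4 or 5 (adjusted p up to 0.0896). Col1a2, a collagen gene, was the only one of 13 endothelium and stroma genes that rose, and it lay above all other arrays, at 119, 126, 150.1, 124 and 120.5 in preMegE, against 76.6 on average in MkP. The summed level of that list was 328 to 360 in preMegE, against 383 to 499 in MkP and 217 to 249 in preGM, and 8 of its 13 genes averaged under 16 in preMegE. The part that such cells had in the result was not tested.

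**Figure D5:**
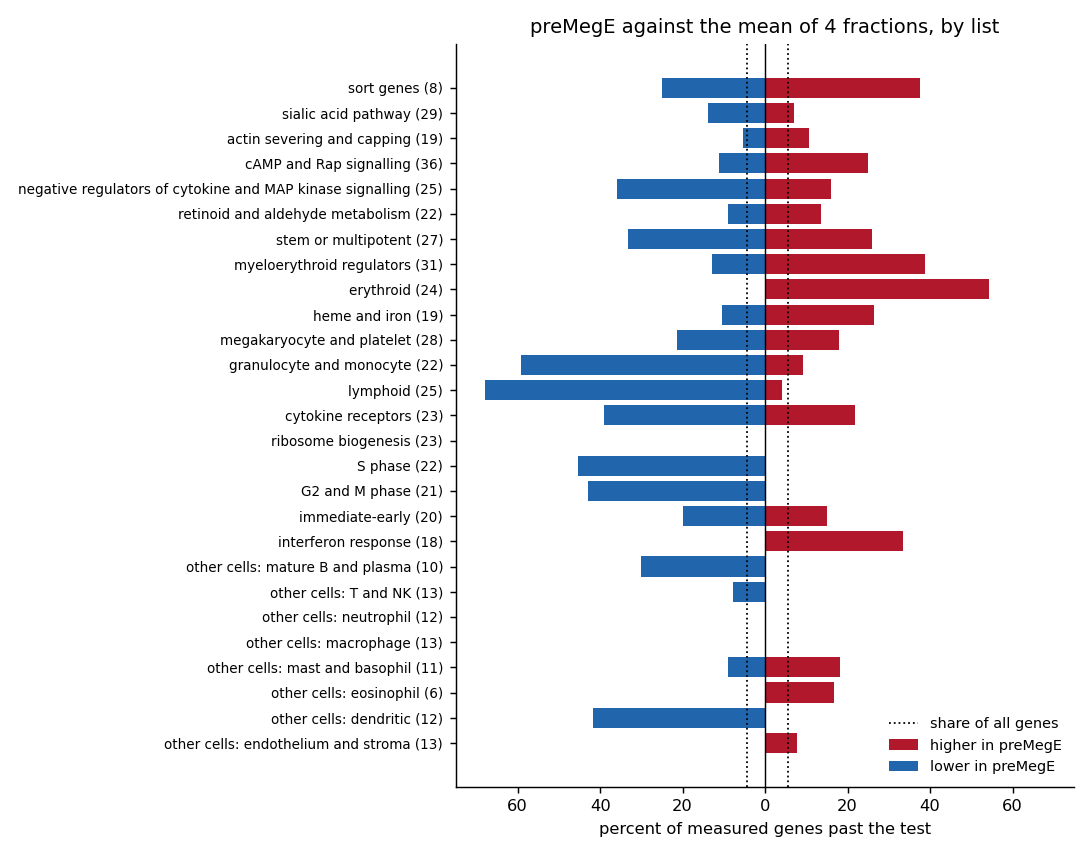
Percent of the measured genes of each list that passed the test, lower in preMegE to the left and higher in preMegE to the right. The number of measured genes is in brackets, and dotted lines mark the shares of all genes (5.44% higher, 4.37% lower). Erythroid and myeloerythroid regulator bars run far to the right, and lymphoid, granulocyte and monocyte, S phase and G2 and M phase bars far to the left.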

How the data were processed

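Transcripts of 17 sorted samples were measured on Affymetrix arrays with 3-prime probe sets. Each array's deposited values are linear-scale intensities of probe sets, made by the authors with RMA, per the series' design text and the submitters' processing notes (version not given in the sources used here). RNA was amplified in more than 1 round, per the design text, which also names a filter on SD over mean. The table held all 45101 probe sets, unfiltered, and the filter was tried as an alternative.

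Probe sets were named from the platform annotation (34945 with 1 symbol, 932 with several, 64 controls and 9160 not listed), and 34741 were found in the RefSeq table. The probe set with the highest mean stood for each of 18193 genes, of which 9010 had several. Values under 16 made up 47.3% of all, and no background level was given. Log2(intensity + 16) was taken from the deposited intensities here, which understates changes of dim genes. A model with a term per fraction was fitted in limma 3.58.1 under R 4.3.3 (12 residual and 2.01 prior degrees of freedom), with Benjamini-Hochberg adjustment over all genes and a threshold of 0.05. It was tested on simulated data. Tables and plots used Python 3.11.15, pandas 2.3.3 and matplotlib 3.10.9.

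The members and gene lists were chosen with earlier results of these data known. Named genes were the 3 given markers, the 12 widest gaps above and below, the sort genes, and from each list up to 3 members that changed most past the test and the most abundant one that did not pass, with the 2 genes on each side of the threshold. Others are named in the text as singled out after their values were seen, and further list or member genes are examples named after their values were seen. List genes without a measured probe set were not analysed here. Alternatives were the pseudocount, scaling, probe sets per gene, 2 filters, array weights, replicate number, RNA shortening, the spread between fractions, leaving out CLP and leaving out each array.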

Additional observations from a re-analysis of the deposited data

Results flagged for a closer look

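In 7 of 137 named genes, 1 preMegE array stood apart from the other 4 by more than 0.71 of the group's range. Chance flags about 1 in 20 groups. Itga2b was lowest in replicate 2, at 209.4, against 324 to 376 in the other preMegE arrays. Dhrs3 was lowest in replicate 1, at 18.05, against 22.0 to 23.6. Ighm was highest in replicate 5, at 582.7, against 10.8 to 22.0. Mcpt8 was highest in replicate 2, at 35.1, against 17.6 to 19.9, and Fen1 was highest in the same array, at 2634, against 2399.8 to 2456. Col1a2 was highest in replicate 3, at 150.1, against 119 to 126, and Txnip was highest in the same array, at 5770.3, against 2667 to 3328.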

How the results depend on the processing

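The 1785 genes past the test (990 higher, 795 lower) became 3202 (1873 higher and 1329 lower) with array weights, 1129 (495 higher) among genes with SD over mean above 0.5, and 161 (144 higher, 17 lower) when the spread between fractions counted as error. Leaving out 1 array gave 1314 to 2534 genes past the test, 719 to 1554 higher and 595 to 980 lower, with 1554 higher without CLP replicate 2. It gave 152 to 267 genes separated from all others, 124 to 231 above and 23 to 41 below, with 267 without preMegE replicate 2. Genes below numbered 47 after quantile normalization, 15 after median centring and 75 without CLP. Replicate numbers did not pair the arrays: same-number deviations correlated at -0.54 to 0.51 (11 of 30 pairs over 0.1). Different-number deviations correlated at -0.60 to 0.59 (32 of 84 pairs over 0.1). Some arrays of different fractions thus shared deviations whatever their number, and the main model has no term for this. With the replicate number as a block, 915 genes passed (502 higher, 413 lower), and S phase and G2 and M phase falls numbered 3 and 2. Of 104 named changes past the test, 62 no longer passed with the spread between fractions as error, 10 with the replicate block and 0 to 6 with 1 array left out. Without CLP, 11 kept their sign but no longer passed, and 2 more turned sign and did not pass. Signs turned without CLP for St6gal1 (0.083), Hoxa9 (0.22), Fech (-0.22), Vpreb1 (0.56), Pcna (-0.065) and Ly6d (0.079), and after quantile normalization for Fcgr2b (-0.039). Mef2c turned with a pseudocount of 64 (-0.018), after quantile normalization (-0.071), and without preMegE replicate 1 (-0.067), preMegE replicate 3 (-0.055) or CLP replicate 3 (-0.0049), with up to 0.16 without preMegE replicate 2. Prg3 turned without preMegE replicate 3 (0.0020) and was -0.13 without replicate 5. H2-Ab1 turned after quantile normalization (-0.033), with array weights (-0.075), with probe sets averaged (-0.025), and without preGM replicate 3 (-0.060) or CLP replicate 3 (-0.012), and ran up to 0.11 without CLP replicate 2. Of these, St6gal1 and Ly6d had passed the test. The cause was not tested. Dim genes and the number of arrays limit the precision.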
